A study of Mus musculus with 8 samples.

Results

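The Hoxb genes form one of the 4 mammalian Hox clusters, a row of homeobox genes that encode transcription factors and give cells their position along the body axis. All CpGs lying in the 10 genes Hoxb1 to Hoxb9 and Hoxb13 or within 5 kb of either end of each gene were taken, and those with 10 or more reads in at least 3 mice of each group were kept. This gave 819 CpGs of the 1717 listed for any mouse there, and of 1278034 kept on the autosomes by the same rule. Of the 819, 747 had 10 or more reads in all 8 mice, and levels of genes and regions are means over these, each CpG weighted equally. The assay, enhanced reduced representation bisulfite sequencing, reads CpG-rich restriction fragments after bisulfite has converted unmethylated cytosines.

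The cells were hematopoietic stem cells (HSCs) sorted from the bone marrow of C57BL/6 mice as cells positive for c-Kit, Sca-1 and CD150 and negative for lineage markers (Lin), Flk2 and CD48. The 4 knockouts (mice 25, 28, 45 and 46) carried loxP-flanked Atg12 and Mx1-Cre (genotype label Atg12fl/flMx1-cre). The 4 controls (mice 1, 34, 36 and 37) are Atg12flox/flox without Cre in the series' design text and WT in their genotype labels, so which alleles they carry is not settled by the sources used here. At 4 weeks of age all mice were given poly(I:C), an inducer of interferon and so of Mx1-Cre, and cells were taken 2 to 3 months later. Mx1-Cre acts in interferon-responsive cells of several tissues, so the deletion was not limited to stem cells. Atg12 encodes a ubiquitin-like protein needed to form autophagosomes. The comparison asks whether the methylation of these stem cells differs when this autophagy gene is lost.

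Hox genes lie in the order in which they are used along the embryo, Hoxb1 first and Hoxb13 last, and all genes of a cluster are transcribed in the same direction. Their CpG islands are long, and in most cells Polycomb or Trithorax complexes, rather than DNA methylation, hold the genes off or on. Blood stem cells are known to express the central genes of the cluster, and Hoxb4 and Hoxb5 are known for their ties to stem cell self-renewal and to long-term stem cells. The cluster is transcribed toward higher coordinates, so the lower coordinate side of a gene is its upstream side.

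Facts of the libraries that touch every value are these. Median coverage per mouse at the 1087161 autosomal CpGs with 10 reads in every mouse ran from 212 to 293 reads. The median coverage of CpGs methylated at 90% or more in all mice, divided by that of CpGs at 5% or less in all mice, was 0.256 in control 34 and 0.338 in knockout 25, the 2 lowest, and 0.454 to 0.734 in the other 6 mice. Y-chromosomal cytosines were at least 7.90 per 10000 listed in each knockout and at most 1.83 in each control, so genotype and Y content cannot be told apart. Of 12 stem and progenitor genes (Kit, Gata2, Tal1, Meis1 and others), 7 had 3 or more CpGs within 500 bp of a start, and all 7 were between 0 and 0.296%. Of 13 genes of other blood cells none had that coverage at its start. Gene windows were measured for 10 genes of each list and overlapped in level, from 0.921% (Meis1) to 60.5% (Procr) for stem and progenitor genes, 6 of them under 20%, and from 1.38% (Cd79a) to 95.4% (Itgam) for the other genes, 4 of them under 20%. These levels are of DNA and do not measure RNA.

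The start of Hoxb1 is shown because it is the only one of the 3 Hoxb promoters in the RefSeq table with measured CpGs. The rest of the 10 Hoxb genes have no promoter entry there. The 250 bases before the start are given 5′ to 3′ on the plus strand (chr11:96365508-96365757, GRCm38.p6), in lower case with the measured CpG in capitals.
Hoxb1: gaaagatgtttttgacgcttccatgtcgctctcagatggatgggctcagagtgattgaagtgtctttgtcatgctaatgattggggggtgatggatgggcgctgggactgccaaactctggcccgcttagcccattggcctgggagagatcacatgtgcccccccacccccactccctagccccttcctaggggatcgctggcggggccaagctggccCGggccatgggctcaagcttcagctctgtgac
This stretch holds 7 CpGs, against a median of 6 over the 32851 promoters of the table. The capital CG lies 32 bases before the start, inside the only CCGG of the stretch. This start is that of the promoter entry and lies inside the gene span used for the window, which begins at 96365746. CCGG, which reads the same on both strands and is the cutting site of MspI, the usual enzyme of this assay, occurs in 47.1% of all promoters of this length. The corresponding stretches of Hoxb4 (14 CpGs, no CCGG) and Hoxb8 (12 CpGs, 1 CCGG) held no CpG that was kept. That of Hoxb8 (chr11:96281655-96281904) lies inside its gene span.

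Most CpGs of the Hoxb genes were unmethylated in the stem cells of both genotypes. Of the 819, 644 (78.6%) had a mean level under 20%, 573 of them under 5% and 121 at 0 in every mouse. A further 96 were between 20 and 80%, and 79 were over 80%. Of those 79, 71 lay in the window of Hoxb3, that is the gene with 5 kb on either side. Over all kept autosomal CpGs 59.8% were under 20%, 7.36% between and 32.9% over 80%.

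**Figure D1:**
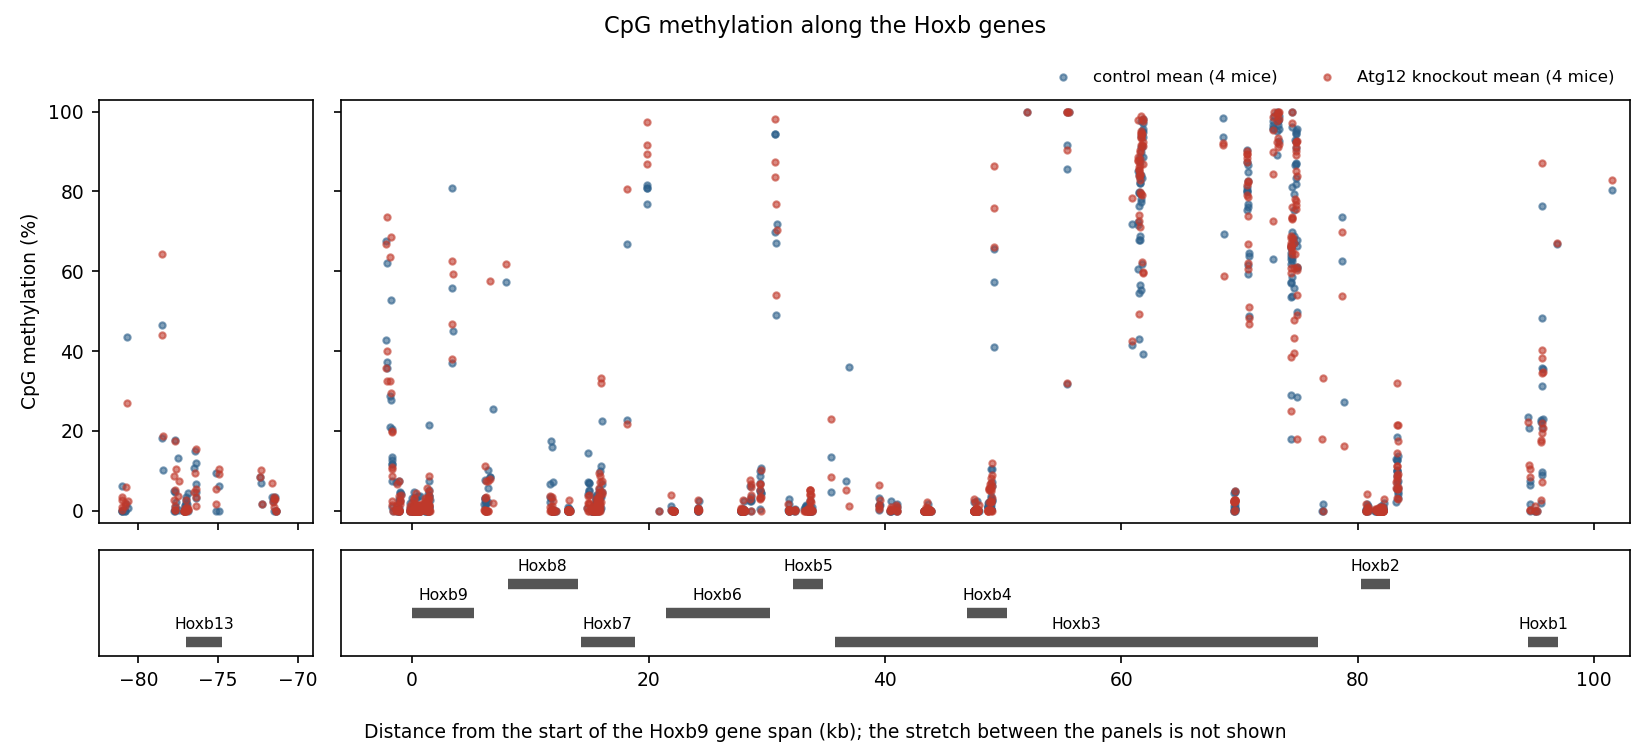
Mean methylation of each kept CpG (y axis, percent) along the Hoxb genes, against its distance in kb from the start of the Hoxb9 gene span, with knockout means in red, control means in blue and gene spans as bars below. Unmethylated kept CpGs at most genes alternate with methylated ones, and stretches without kept CpGs were not measured. Of the 79 CpGs over 80%, 71 lie in the Hoxb3 window.

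Hoxb4 had the lowest level of the 10. Its 97 CpGs averaged 1.99, 2.37, 1.62 and 1.62% in knockouts 25, 28, 45 and 46, and 1.87, 1.18, 1.44 and 1.38% in controls 1, 34, 36 and 37. The groups overlapped, through control 1. The 32 CpGs on its upstream side averaged 0.145% and the 65 in the gene 2.44%. Its span, chr11:96318267-96321638, lies inside the longer span of Hoxb3, so the Hoxb3 window holds all of its CpGs. Of all 16029 tested gene windows, 10.6% were lower than that of Hoxb4.

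Hoxb2, a hindbrain patterning gene, came next with 80 CpGs (chr11:96351632-96354020). Its levels were 1.53, 3.74, 2.12 and 3.49% in knockouts and 1.61, 1.65, 2.36 and 2.81% in controls, in the same order of mice. The groups overlapped over most of their range. The 62 CpGs within the gene averaged 0.259%, and the 18 beyond its far end 9.83%.

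Hoxb5, the gene used to mark long-term stem cells in mice, was at 4.64, 5.79, 4.35 and 4.90% in knockouts and 4.87, 3.32, 4.97 and 5.26% in controls over 91 CpGs (chr11:96303512-96306121). Knockout 28 was highest and control 34 lowest, with the other 6 mice mixed between them. The gene itself was at 0.794% (30 CpGs), while its upstream flank, which reaches into Hoxb6, was at 6.74% (52 CpGs).

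Hoxb6 (chr11:96292814-96301569) was the highest of the 8 largely unmethylated windows. Its 105 CpGs averaged 6.97, 8.47, 6.71 and 7.30% in knockouts and 7.42, 5.75, 6.42 and 6.13% in controls. Control 1 lay among the knockouts and the other 3 controls below all of them. The 55 CpGs within the gene were at 1.5%, and only 5 CpGs were covered on its upstream side, at 68.5%. The windows of Hoxb5 and Hoxb6 share 82 CpGs, 90.1% of the first and 78.1% of the second.

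Hoxb7 and Hoxb8 are neighbours whose windows share 102 CpGs, 88.7% and 84.3% of their CpGs. Hoxb8 (chr11:96279401-96285325), known for blocking myeloid differentiation when overexpressed, was at 3.74, 4.53, 2.20 and 4.02% in knockouts and 4.21, 3.84, 3.73 and 4.76% in controls over 121 CpGs. Knockout 45 was lowest. Hoxb7 (chr11:96285604-96290163) was at 5.06, 6.21, 3.95 and 4.28% in knockouts and 5.02, 4.78, 3.79 and 5.59% in controls over 115 CpGs. For both genes the groups overlapped across their range, and the CpGs inside the gene were low, at 1.08% in Hoxb8 (32 CpGs) and 2.51% in Hoxb7 (70 CpGs). The 13 CpGs beyond the far end of Hoxb7 averaged 26.6%.

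Hoxb9 (chr11:96271330-96276595), a gene of posterior identity, carried the most covered CpGs of the windows other than that of Hoxb3, 156. Its levels were 4.74, 4.81, 5.30 and 5.59% in knockouts and 5.56, 4.29, 5.84 and 5.34% in controls, with little spread. The gene was at 2.87% (105 CpGs) and its upstream flank at 12.8% (36 CpGs).

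Hoxb13 (chr11:96194316-96196610), which lies 74.7 kb away from Hoxb9 and is best known from prostate and hindgut, was also largely unmethylated. Its 51 CpGs averaged 5.10, 4.55, 7.90 and 6.18% in knockouts and 5.61, 3.30, 5.80 and 4.38% in controls. Knockout 45 was highest and control 34 lowest, and the other mice of the groups were mixed.

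Hoxb1 stood between the unmethylated genes and Hoxb3. Hoxb1 (chr11:96365746-96368254) is the first gene of the row, used in the hindbrain, and few of its CpGs were covered, 20 in all mice. They averaged 20.7, 20.2, 24.2 and 27.2% in knockouts and 21.9, 24.0, 26.1 and 20.4% in controls. The groups covered the same range. The 2 CpGs between 250 bases before and 50 after the start shown above were at 19.7, 9.84, 18.8 and 18.97% in knockouts and 17.4, 16.3, 39.8 and 14.9% in controls, with control 36 highest, and median coverage of 56 to 224 reads per mouse.

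Within Hoxb1 the kept CpGs formed 2 runs, split at a mean level of 20%, so that the split itself sets which is higher. The run nearer the start, from position 96365765 to 96366868, averaged 7.55% ± 0.384 in knockouts and 9.24% ± 2.12 in controls (SD, n = 4 each, 10 CpGs). The following run, from 96366927 to 96368144, averaged 44.4% ± 8.65 and 42.2% ± 5.51 (6 CpGs). Individual mice ranged from 6.95 to 11.5% in the former and from 37.96 to 56.7% in the latter.

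Hoxb3 had the highest level and the widest range of CpG levels. RefSeq gives it a span of 40.8 kb (chr11:96307101-96347930), the longest of the cluster, since some of its transcripts start far upstream. Its 290 CpGs averaged 25.3, 28.9, 32.3 and 32.2% in knockouts 25, 28, 45 and 46, and 30.1, 24.3, 30.1 and 29.7% in controls 1, 34, 36 and 37. The 2 lowest mice, control 34 and knockout 25, were also the 2 with the lowest coverage of methylated CpGs, whose part in the result was not tested. Of its 333 kept CpGs, 198 were under 20%, 64 between 20 and 80% and 71 over 80%.

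**Figure D2:**
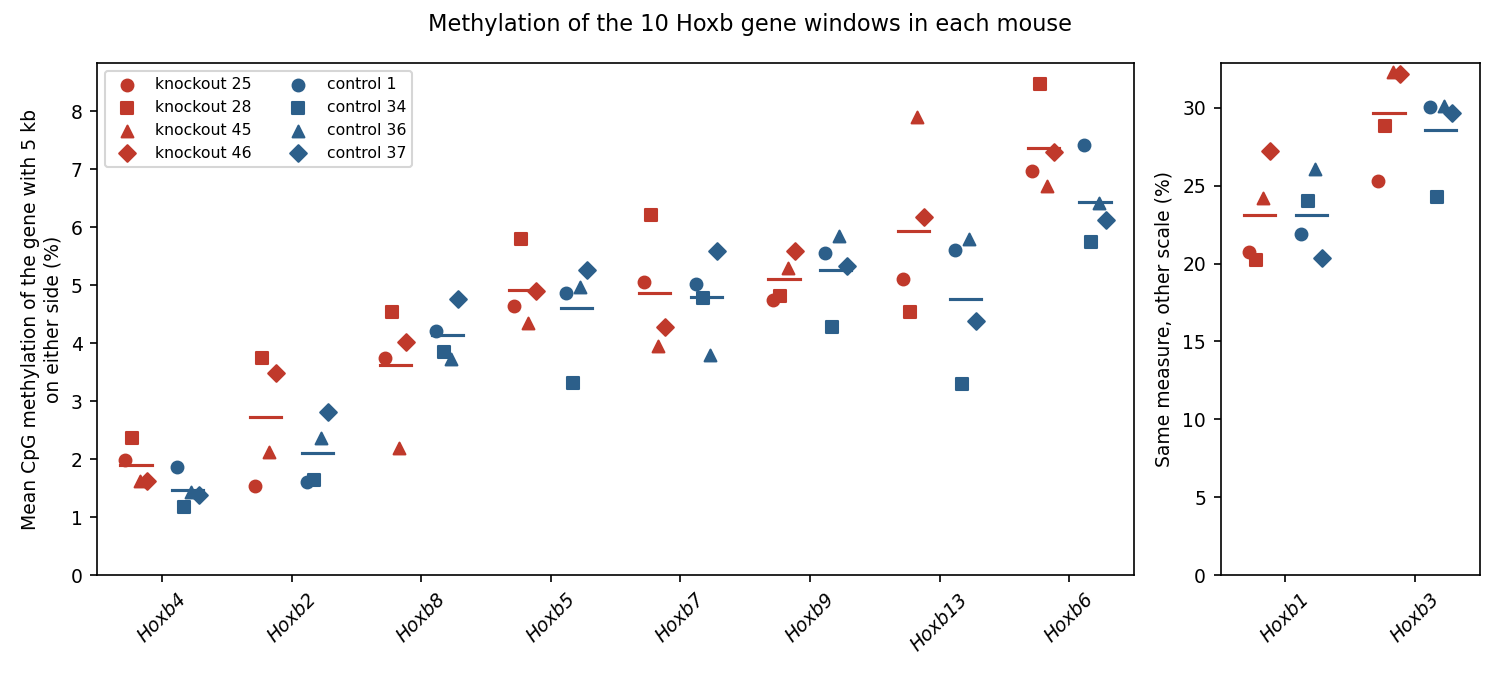
Mean methylation (y axis, percent) of each Hoxb gene with 5 kb on either side in every mouse, with genes ordered by level, knockouts in red, controls in blue and group means as bars. Knockouts and controls overlap at all 10 genes, and Hoxb1 and Hoxb3, on their own scale, lie above 20% in all mice.

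In order of level the windows ran Hoxb4 (1.68% over 8 mice), Hoxb2 (2.41%), Hoxb8 (3.88%), Hoxb5 (4.76%), Hoxb7 (4.83%), Hoxb9 (5.19%), Hoxb13 (5.35%), Hoxb6 (6.90%), Hoxb1 (23.1%) and Hoxb3 (29.1%). Neighbours in this order overlapped between mice except Hoxb6 and Hoxb1. From Hoxb5 to Hoxb13 the neighbours were within the spread between mice, the higher gene of a pair being higher in 5 of 8 mice for Hoxb7 over Hoxb5, and in 4 of 8 for Hoxb9 over Hoxb7 and for Hoxb13 over Hoxb9. Hoxb3 was above Hoxb1 in 8 of 8 mice. The level within the row followed no order along the cluster.

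Kept CpGs of the cluster were grouped into blocks by level. The lengths of these blocks depend on which CpGs were covered, and the stretches without kept CpGs were not measured. With a block defined as 5 or more consecutive kept CpGs at a mean of 20% or more, no more than 2000 bp apart, there were 8 blocks, and 16 runs under 20% by the same definition. The longest unmethylated runs were 5147 bp over Hoxb5 and the end of Hoxb3 that faces it (48 CpGs, mean 1.63%), 4305 bp over Hoxb8 and Hoxb7 (103 CpGs, 1.60%) and 3517 bp over Hoxb13 (34 CpGs, 4.21%). The run over Hoxb9 held the most CpGs, 128 in 3215 bp, at 1.17%.

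Of the 8 blocks, 4 were inside Hoxb3. A block of 963 bp at chr11:96332203-96333165 held 41 CpGs, 35 of them covered in all mice, which averaged 71.8, 82.9, 90.1 and 84.4% in knockouts and 80.8, 66.0, 79.3 and 78.1% in controls. Control 34 and knockout 25 were lowest. A block of 182 bp at chr11:96341919-96342100 was at 83.4, 79.9, 86.5 and 92.4% in knockouts and 91.4, 44.5, 89.99 and 90.9% in controls over 8 CpGs. Here control 34 stood alone and the other 7 mice lay between 79.9 and 92.4%.

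The largest block, 2051 bp at chr11:96344154-96346204, overlaps the antisense transcript Hoxb3os, as does the unmethylated run over Hoxb2 (mean 1.61%). The 55 CpGs of the block averaged 61.0, 69.9, 86.8 and 85.7% in knockouts and 78.5, 66.9, 80.4 and 77.8% in controls. Knockouts 45 and 46 were above all controls, knockout 28 was below all but control 34, and knockout 25 was the lowest mouse. Between the first and the second of these blocks, an unmethylated run of 14 CpGs at chr11:96340830-96340968 was at 1.13, 0.391, 0.0809 and 7.49% in knockouts and 1.08, 1.42, 2.48 and 1.16% in controls. Knockout 46 was highest in this run and the other mice were under 3%. The fourth Hoxb3 block, of 199 bp, had a single CpG covered in all mice.

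The other 4 blocks lay between genes or near their ends. A block of 1666 bp at chr11:96289538-96291203 starts inside Hoxb7 and runs toward Hoxb6. It held 6 CpGs with a mean of 72.9%, single CpGs being at 22.2 to 89.5%. The 4 covered in all mice were at 92.7, 100, 89.8 and 82.7% in knockouts and 93.5, 77.2, 73.4 and 75.8% in controls. The knockouts were above controls 34, 36 and 37, and control 1 lay among them. Between Hoxb6 and Hoxb5, 470 bp from Hoxb6, a block of 135 bp was at 71.2% ± 7.48 and 64.5% ± 12.1 (SD, n = 4 each, 4 CpGs). This block and the one from Hoxb7 overlap the RefSeq gene Hoxb5os. So do the unmethylated runs that start at 96292181, 96299139 and 96303152, at means of 0.336, 1.98 and 1.63%. Upstream of Hoxb9, 1814 bp away, a block of 391 bp was at 47.4% ± 13.5 and 43.4% ± 6.75 over 8 CpGs, and it adjoins the unmethylated run of Hoxb9. The block within Hoxb1 was given above.

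**Figure D3:**
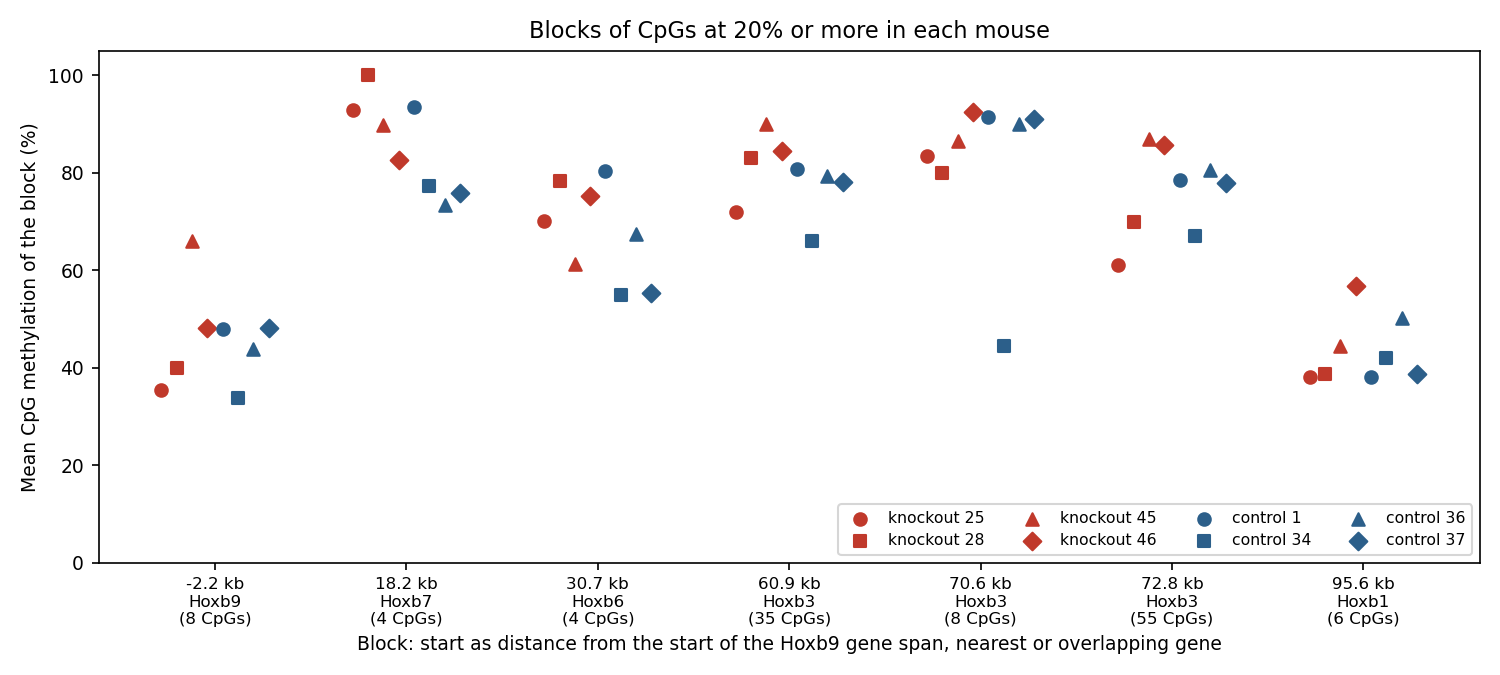
Mean methylation (y axis, percent) of each block of CpGs at 20% or more in every mouse, for the 7 blocks with at least 4 CpGs covered in all mice, placed by the block's start in kb from the start of the Hoxb9 span. Control 34 is lowest in 4 of the 7, and knockouts and controls overlap in all of them.

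The spread between mice depended on the level of a CpG. The median SD over mice was 0.914 percentage points for Hoxb CpGs under 20%, 20.5 for those between 20 and 80% and 8.66 for those over 80%. Over all autosomal CpGs of the same classes it was 0.177, 19.1 and 5.99. Among the 96 Hoxb CpGs between 20 and 80%, 83 of 738 single values (11.2%) were exactly 0 or 100%. The median over all 738 values was 170.5 reads. Values of exactly 0 or 100% made up 27.3% in knockout 45 and 1.08% in control 36, the highest and the lowest mouse. Over all autosomal CpGs of this class the share was 14.1%, with knockout 45 again highest (26.0%) and control 36 again lowest (5.41%). The number of DNA molecules behind a value is not known, and its part in these shares was not tested.

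Hoxb CpGs differed from the genome in how their methylation followed CpG density, counted as CpGs listed for any mouse within the surrounding 500 bp. Where CpGs were sparse, 1 to 9 in 500 bp, the 34 Hoxb CpGs averaged 34.7%, with mice from 26.2 to 40.1%, while all autosomal CpGs of that density averaged 82.1%, with mice from 79.8 to 83.0%. At 10 to 19 the levels were 15.5% (173 CpGs) and 59.2%. At 20 to 39 the Hoxb CpGs were higher than the genome, 16.9% (326 CpGs; mice from 13.6 to 19.3%) against 7.32% (6.90 to 7.54%), and at 40 or more they were at 7.01% (214 CpGs) against 1.02%. Without the CpGs of the Hoxb3 window, a split chosen after the values were seen, the Hoxb levels were 28.8, 9.93, 3.33 and 0.621% in the same order. All 4 were then below the genome. The ranges over mice of Hoxb and of all CpGs did not overlap at any density, with or without the Hoxb3 window. CpGs of 1 locus are not independent, so no test was made.

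**Figure D4:**
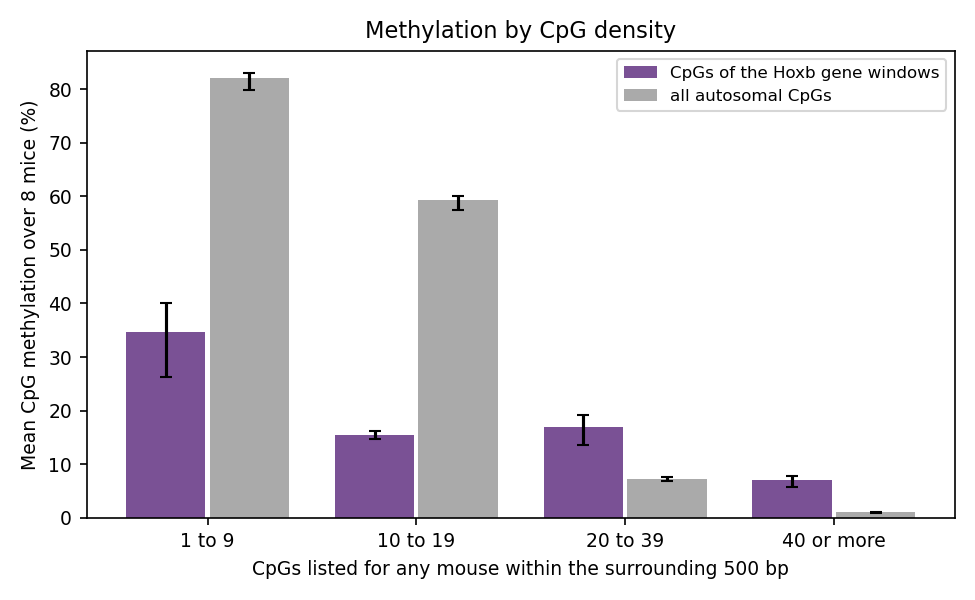
Mean methylation over 8 mice (y axis, percent) by the number of CpGs within 500 bp, for Hoxb CpGs (purple) and all autosomal CpGs (grey), with bars from the lowest to the highest mouse. Sparse Hoxb CpGs are at 34.7% against 82.1% for the genome, and in the 2 denser classes Hoxb CpGs are above the genome, which they are not without the Hoxb3 window.

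The other Hox clusters, taken by the same rule, were likewise mostly unmethylated. CpGs under 20% made up 78.6% in Hoxb, 79.7% in Hoxa (1061 CpGs), 94.4% in Hoxc (783) and 95.1% in Hoxd (1116). Over CpGs covered in all mice Hoxb averaged 14.8% ± 1.48 in knockouts and 14.3% ± 1.34 in controls, Hoxa 13.7% ± 1.75 and 12.3% ± 1.43, Hoxc 5.32% ± 0.32 and 5.41% ± 0.497, and Hoxd 5.68% ± 0.0214 and 5.42% ± 0.444 (SD, n = 4 each). Individual mice ran from 12.3 to 16.0% in Hoxb and from 10.2 to 15.3% in Hoxa, which overlap, and from 4.73 to 5.86% in Hoxc and Hoxd together. The highest gene window of each cluster was Hoxb3 (29.1%), Hoxa5 (37.4%), Hoxc5 (9.37%) and Hoxd4 (26.6%). No gene window of any cluster passed the genotype test, as was the case for 0% of all tested gene windows. By the moderated quasi-binomial model, an unadjusted p under 0.05 was found for 0 of 10 Hoxb and 1 of 11 Hoxa windows. It was found for 1 of 9 Hoxc and 2 of 9 Hoxd windows, and for 5.21% of all.

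None of the 10 Hoxb gene windows differed by genotype past the threshold, an adjusted p of 0.05 over all 16029 tested gene windows (moderated quasi-binomial model). The share called over all tested gene windows was 0%, and 5.21% had an unadjusted p under 0.05 (3.29% lower and 1.92% higher in knockouts), which 0 of the 10 had. The groups overlapped in all 10, and did not in 2.73% of all. limma on log2 ratios also called 0, with an unadjusted p under 0.05 for 0 of the 10 and for 4.37% of all. Hoxb4 came closest: 1.90% ± 0.358 in knockouts and 1.47% ± 0.29 in controls (SD, n = 4 each). The knockouts were 0.436 percentage points higher, with a 95% exact permutation interval from -0.245 to 1.19 (adjusted p = 0.986, quasi-binomial model moderated with limma). For Hoxb6 the difference was 0.933 points (SE 0.526), with an interval from -0.702 to 2.72. For Hoxb5 it was 0.315 points, from -0.911 to 2.48.

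The interval was widest for Hoxb3, whose difference of 1.11 points had a 95% interval from -4.80 to 7.98, and for Hoxb1, at 0.00135 points and from -5.88 to 6.87. Without control 34, the lowest mouse for Hoxb3, its difference was -0.313 points. The other 5 windows differed by 1.16 (Hoxb13), -0.147 (Hoxb9), -0.515 (Hoxb8), 0.0814 (Hoxb7) and 0.614 points (Hoxb2), and the adjusted p of all 10 ran from 0.986 to 0.996. Leaving out 1 mouse moved several of them by over 1.5 times. Hoxb13 was at 0.507 points without knockout 45 and 0.674 without control 34. Hoxb8 was at -0.0412 without knockout 45, -0.305 without control 37 and -0.818 without knockout 28. Hoxb2 was at 0.274 without knockout 28, 0.356 without knockout 46 and 1.01 without knockout 25. Hoxb6 was at 0.565 and Hoxb4 at 0.279 without knockout 28. Differences this small relative to their intervals do not show that the groups were equal. The smallest exact permutation p of the 10 was 0.114 for Hoxb4, where 4 against 4 mice allow 0.0286.

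**Figure D5:**
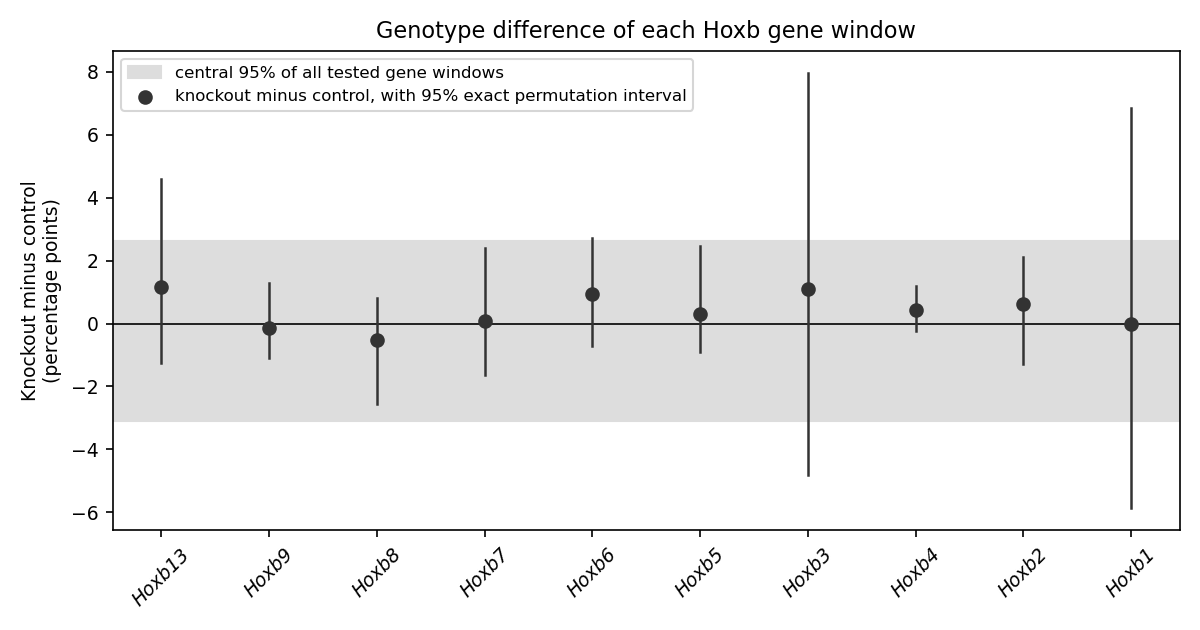
Difference of the group means (knockout minus control, percentage points) of each Hoxb gene window, with its 95% exact permutation interval, over the central 95% of the differences of all tested gene windows in grey (-3.11 to 2.62). All 10 intervals include 0.

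In direction, 8 of the 10 windows were higher and 2 lower in knockouts, with a median difference of 0.376 points, while 51.3% of all tested gene windows were lower and their median was -0.0133. In the other clusters 11 of 11 Hoxa windows were higher (median difference 0.707 points), 5 of 9 Hoxc (0.0187) and 6 of 9 Hoxd (0.161). The 8 Hoxb windows are not separate measurements, since 372 of the 819 CpGs lie in more than 1 window. With reads summed over CpGs in place of equal weights, 6 were higher and 4 lower, and 68.1% of all gene windows were lower. Without control 34 the split was also 6 and 4, and 61.0% of all were lower. The number of the 10 with an unadjusted p under 0.05 was 1 without knockout 25 (5.81% of all gene windows), 1 without knockout 46 (5.45%), 2 without control 1 (3.82%) and 1 without both knockout 25 and control 34 (7.64%). None of these passed the adjusted threshold.

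Of the 45 measured 1 kb windows that overlap the Hoxb gene windows, 17 had a mean level of 5 to 95% and were tested. None passed (smallest adjusted p = 0.794 over 40595 windows, moderated quasi-binomial model), as was the case for 0% of all windows. At an unadjusted p under 0.05 there were 0 of the 17 and 6.23% of all tested windows (4.34% lower and 1.90% higher in knockouts). With limma there were also 0 of the 17, and 4.68% of all. Without knockout 25 there were 4 of 16 (7.22% of all). There was 1 without knockout 46 (7.03% of all), 1 without control 1 (4.44%), 1 without control 34 (7.65%) and 1 without both knockout 25 and control 34 (7.96%), none of them called. The groups overlapped in all 17, while 3.35% of all windows had groups that did not. In direction 5 were lower and 12 higher, with 52.9% of all lower. Without control 34 there were 8 calls among all windows, none of them here. Among Hoxb windows left untested by their level, groups did not overlap in 96194001-96195000, at 2.47% in knockouts and 3.89% in controls. Nor did they in 96305001-96306000, at 2.23% in knockouts (0.614, 5.68, 0.0492 and 2.58% by mouse) and 0.00801% in controls (0 to 0.0321%). The former overlaps Hoxb13 and the latter lies in Hoxb5. The share of such windows over all untested ones was not counted. With no limit on the level all 45 were tested, and 4 had an unadjusted p under 0.05, as did 6.6% of all windows. None was called (smallest adjusted p = 0.711, moderated quasi-binomial model).

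On the higher side, the window with the smallest p was chr11:96291001-96292000, between Hoxb7 and Hoxb6, in the block that starts inside Hoxb7. It was at 91.3% ± 7.18 in knockouts and 80.002% ± 9.14 in controls (SD, n = 4 each, 4 CpGs, adjusted p = 0.794 by the moderated quasi-binomial model). It was followed by the window upstream of Hoxb13 (chr11:96192001-96193000), where 3 CpGs were at 28.8, 23.4, 72.4 and 44.7% in knockouts and 32.9, 7, 32.2 and 27.6% in controls. Knockout 45 was highest there and control 34 lowest, and the others overlapped. The window in the first Hoxb3 block (chr11:96332001-96333000) was at 82.5% ± 8.15 and 73.4% ± 10.8 over 24 CpGs, and that beyond Hoxb2 (chr11:96354001-96355000) at 11.1% ± 4.5 and 8.60% ± 2.59 over 18 CpGs.

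On the lower side the differences were small. The window that holds the start of the largest Hoxb3 block (chr11:96344001-96345000) was at 94.0% ± 1.59 and 94.3% ± 1.78 over 16 CpGs, the most stable of the methylated windows. The window at the start of Hoxb1 (chr11:96365001-96366000) was at 8.83% ± 2.36 and 9.92% ± 4.18 over 6 CpGs. The window within Hoxb9 (chr11:96274001-96275000) was at 51.6% ± 16.1 and 54.7% ± 8.53 over 4 CpGs, with knockout 45 at 28.6% and control 34 at 41.9% below the other 6 mice. The window at the upper end of Hoxb3 (chr11:96346001-96347000) was at 74.1% ± 14.7 and 76.1% ± 9.37 over 15 CpGs. Adjusted p of these 8 windows ran from 0.794 to 0.988.

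Among the 819 CpGs, 226 had a mean level of 5 to 95% and were tested, and none passed (smallest adjusted p = 0.740 over 313880 CpGs, moderated quasi-binomial model). Of all tested CpGs 20 passed, 0.00637%, a number that was 152 without knockout 45, 7 without control 36, 12 without knockout 46 or control 37, 13 without control 1 and 0 without knockout 25. At an unadjusted p under 0.05 there were 15 of the 226, and 6.51% of all tested CpGs. Of the 15, 5 were lower in knockouts, as were 4.11% of all tested CpGs, and 10 higher, as were 2.40%. The limma fit gave 6 of the 226, against 5.02% of all tested CpGs, and no call. Without knockout 25 the count was 27 of 217 (8.10% of all), and without control 37 it was 6 of 225 (4.47% of all). In direction 103 of the 226 were lower and 123 higher, with 53.7% of all tested CpGs lower. The groups did not overlap at 2 of the 226, against 3.14% of all tested CpGs, and both had a mouse with too few reads.

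Of the single CpGs named on the lower side for their p, 2 lie in Hoxb3 and 1 in Hoxb6. Position 96346129 was at 75.5% ± 13.6 in knockouts and 87.2% ± 11.7 in controls (SD, n = 4 each). Position 96342040 was at 40, 46.1 and 100% in knockouts 28, 45 and 46 and 74.3, 85.6 and 100% in controls 1, 36 and 37. Knockout 25 and control 34 had no cytosine of 10 or more reads listed there, so the fit left them out. The 100% in knockout 46 rests on 13 reads, against 55 to 206 in the other mice measured. Position 96300792 in Hoxb6 was at 2.38, 6.57, 0.0939 and 4.37% in knockouts and 9.81, 10.1, 6.30 and 8.89% in controls, at 619 to 1065 reads per mouse. There the highest knockout exceeded the lowest control by a fraction of a point.

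On the higher side, position 96354693, beyond the far end of Hoxb2, was at 7.51, 17.6, 21.7 and 23.5% in knockouts and 9.81, 2.21, 10.5 and 7.38% in controls. All knockouts but mouse 25 were above all controls. Position 96346155 in Hoxb3 was at 84.0% ± 13.4 and 60.9% ± 7.71, in the same 1 kb window as 96346129, where the knockouts were the lower group. Position 96193677 upstream of Hoxb13 was at 10.4% ± 6.13 and 2.26% ± 3.06, with knockout 25 among the controls. Adjusted p of these 6 CpGs ran from 0.740 to 0.751.

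Genes that act with Hox proteins or regulate them were compared in the same way. Of 31 such genes, among them the Meis and Pknox partners, the Cdx activators, retinoic acid receptors and subunits of Polycomb and MLL complexes, all were tested and 0 passed, with 14 higher and 17 lower in knockouts and a median difference of -0.0205 points. None had an unadjusted p under 0.05, by the moderated quasi-binomial model. Of all tested gene windows 0% passed, 5.21% had an unadjusted p under 0.05 and 51.3% were lower, with a median difference of -0.0133 points. The lowest was Eed, a Polycomb subunit, at 0.149%. Meis1, a partner of Hox proteins in stem cells, was at 0.91% in knockouts and 0.93% in controls.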

How the data were processed

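DNA methylation was measured in 8 libraries, 1 per mouse. Per the submitters' processing notes the tools included CASAVA 1.8.2 and Bismark with build mm10; for alignment and calling settings, none is stated in the labels or headers. Per the file headers, the authors' deposited tables give for each CpG cytosine the read count covering it, and the percent of those reads showing C or T; each lists only cytosines with 10 or more reads. Totals of listed cytosines ran from 2038266 to 3366162 per mouse. Reads carry no molecular identifiers, so read numbers bound counting error only. The p-values set the difference between groups against the spread between mice. The quasi-binomial model pools the reads of a group, so deeper mice weigh more, while the printed means and differences weight mice equally.

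The 2 strands of a CpG were merged and methylated reads taken as coverage times percent C. A region's level was the mean of its CpGs weighted equally, with reads summed as an alternative, because libraries differed in coverage of methylated CpGs. Gene windows needed 5 CpGs covered in all mice and 20 methylated reads, and 1 kb windows 3 CpGs. CpGs and 1 kb windows were tested at mean levels of 5 to 95%. The test was a logistic quasi-binomial model of knockout against control, with dispersion moderated by limma 3.58.1 in R 4.3.3 over all features, and p-values adjusted by Benjamini-Hochberg over all features, called at 0.05. It was tested on simulated data. Single gene windows also got a two-sided exact permutation test and interval over 70 arrangements. Gene spans came from the RefSeq table (GRCm38), whose table of genes gives no exons.

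All 10 Hoxb genes were named, with the 4 tested 1 kb windows and the 3 tested CpGs of smallest p on each side. The members and lists were chosen with earlier results of these data known. Alternatives changed the coverage minimum, a coverage ceiling, the model, the level limit, the CpGs required and the mice included.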

Additional observations from a re-analysis of the deposited data

Results flagged for a closer look

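In 5 of 54 groups of 4 mice examined, 1 mouse stood apart from the other 3 (its gap to the nearest value, as a share of the group's range, was above Dixon's 95% critical value). Chance gives about 5% of separate groups. The 54 groups share mice and many CpGs, so their count cannot be set against that share. In all 5 the mouse was control 34, the lowest. The Hoxb3 window was at 24.3% in control 34, with the nearest control at 29.7%. The 1 kb window from 96274001, in Hoxb9, was at 41.9%, with the nearest at 58.6%. The 3 others lie in Hoxb3. The window from 96332001 was at 57.3% (nearest 77.3%), that from 96341001 at 44.5% (nearest 89.99%) and that from 96346001 at 62.2% (nearest 78.8%). Control 34 also had the lowest coverage of methylated relative to unmethylated CpGs, 0.256, whose part in these values was not tested.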

How the results depend on the processing

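No paired analysis was possible because knockouts and controls share no replicate numbers. No Hoxb CpG, window or gene was called under any alternative, and 0 gene windows were called in all of them. Calls over all CpGs, 20 as reported, were 39 at a minimum of 20 reads, 1 with the highest-coverage CpGs left out, 0 with limma, 0 with no level limit and 3 without knockout 25 and control 34. Leaving out 1 mouse gave 0 (without knockout 25) to 152 (without knockout 45). Calls over all 1 kb windows, 0 as reported, were 3 without knockout 25 and control 34, and leaving out 1 mouse gave 0 to 8 (without control 34). Using C and T reads for the level was added after seeing the data.

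Differences between genotypes (knockout minus control, percentage points) changed sign as follows, and the cause was not tested. With reads summed they were 0.368 in the window from 96365001, 5.29 in that from 96346001, 0.309 for Hoxb8, -0.121 for Hoxb6, -0.897 for Hoxb3 and -0.183 for Hoxb1. With CpGs covered in at least 3 mice of each group they were 0.257 for Hoxb9 and -0.149 for Hoxb7. At 20 reads Hoxb7 was at -0.197, without knockout 25 and control 34 Hoxb5 at -0.0203, and from C and T reads Hoxb1 at -0.0174. Leaving out 1 mouse gave -1.11 to 0.230 in the window from 96344001, -2.05 to 0.964 from 96365001, -7.64 to 4.54 from 96274001 and -6.73 to 2.86 from 96346001. For genes it gave -0.471 to 0.0480 for Hoxb9, -0.363 to 0.388 for Hoxb7, -0.115 to 0.534 for Hoxb5, -0.313 to 2.55 for Hoxb3 and -1.38 to 0.9997 for Hoxb1.

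With 4 mice a group the intervals of Hoxb3 and Hoxb1 allow differences of several points. Of 1717 listed Hoxb CpGs, 819 had the coverage to be kept.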
